A study of Mus musculus with 4 samples.

Results

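Macrophages that enter the brain from the blood, and macrophages that live at its borders, were followed through a set of 10 genes. The set held Arg1, Nos2, Lyz2, Ms4a7, Plac8, Chil3, Mrc1, Cd163, Lyve1 and F13a1, taken by symbol from the 54532 genes listed in every library. All 10 were found, and each had at least 1 read in all 4 libraries. The tissue was brain outside the tumor mass of C57BL/6 mice, with 1 RNA sequencing library for each of 4 groups, which were old tumor-bearing, old naive, young tumor-bearing and young naive mice. The tumor-bearing mice had received 50000 cells of GL261, a transplantable mouse glioma line of the same strain, into the brain, and tissue was taken on day 21. Naive mice of both ages served as controls. All 4 groups were listed as untreated. Young animals were aged 8 to 12 weeks. Old animals are listed at 8 to 90 weeks, a range with the same lower end, so that old stands here for the label alone. The naive samples carry the GL261 tag as well, and the group tag was followed. The sources used here do not give the number of mice behind a library or say whether naive mice had sham surgery. GL261 was the only tumor line.

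Brain tissue holds several kinds of macrophage. Microglia fill the parenchyma, while border-associated macrophages sit in the meninges, the perivascular spaces and the choroid plexus and typically carry the scavenger and hyaluronan receptors encoded by Mrc1, Cd163 and Lyve1. Monocytes that cross from blood into inflamed or tumor-bearing brain become macrophages that carry lysozyme and, depending on the signals they meet, arginase 1 or the inducible nitric oxide synthase, both of which consume arginine. In mouse glioma models such recruited cells are a large part of the tumor-associated macrophages.

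Levels are in FPKM, a read count that the authors divided by gene length and by sequencing depth. The reads behind each FPKM value were recovered as whole numbers, and the bracketed range after a fold is the exact 95% interval of the ratio of those reads, which covers counting error only. With 1 library per group there was no replicate check and no test between groups, so every difference below is a difference between libraries. A gene was over the floor where it reached 1 FPKM in either library compared, and was called where it also differed at least 2-fold in FPKM + 0.1. Over all genes tested, 20.6% were called higher and 31.4% lower in old tumor-bearing than in old naive tissue. In young tissue these shares were 5.05% and 1.85%. The counts of every list below stand beside them. A gene over the floor only through a tumor-bearing library could not have been called lower. The counts of a list are therefore no test of direction. The libraries held 19572251 to 23267925 recovered fragments. All 10 genes are annotated as protein-coding, and their levels cover all exons of a gene. In bulk tissue, fewer cells of a type and less RNA per cell cannot be told apart, and the cell that made an RNA is not known. Genes expressed by all macrophages and microglia were present in every library. The summed level of 10 such genes, Csf1r, Tyrobp, Cd68 and Ptprc among them, was 269 FPKM in old tumor-bearing, 82.5 in old naive, 88.8 in young tumor-bearing and 62.0 in young naive tissue. The old tumor-bearing library stood apart from the others. Its 12 neuronal genes summed to 397 FPKM, against 1990 in old naive tissue, with 11 of 12 at least 2-fold lower, and its 10 cell cycle genes summed to 187 FPKM, against 2.32, with 10 of 10 at least 2-fold higher. The part of these shifts in the values below was not tested.

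Genes associated with recruited macrophages were highest in old tumor-bearing tissue, next highest in young tumor-bearing tissue for most of them, and low in naive tissue. Lyz2 encodes the lysozyme of myeloid cells (ENSMUSG00000069516, mm10 chromosome 10, 117277331 to 117282321) and had the highest level of the 10 genes in all 4 libraries. It stood at 244 FPKM in old tumor-bearing and 12.1 FPKM in old naive tissue, and at 28.2 FPKM in young tumor-bearing and 6.47 FPKM in young naive tissue. The 95% intervals of these 4 levels did not overlap. Tumor-bearing tissue was thus 20.1-fold higher than naive tissue in old mice (17.7 to 22.9) and 4.37-fold higher in young mice (3.70 to 5.18). By level, Lyz2 ranked 85th among all genes in old tumor-bearing tissue, against 4770th in old naive tissue, and 1839th in young tumor-bearing tissue, against 7406th in young naive tissue. Lyz2 made up 91.3% of the summed FPKM of the 10 genes in old tumor-bearing, 77.4% in old naive, 84.9% in young tumor-bearing and 68.4% in young naive tissue, so a sum over the set mostly restates Lyz2. Of the 50-base stretches in Lyz2 transcripts, 15.4% also occur in its neighbour copy Lyz1. Lyz1 itself was listed at 0.07 FPKM or less in all libraries, but the sources used here do not say how shared reads were assigned.

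Plac8, a small cysteine-rich protein found in monocytes and other leukocytes (ENSMUSG00000029322, mm10 chromosome 5, 100553725 to 100572245), was nearly absent from naive tissue. It had 260 reads in old tumor-bearing tissue (7.02 FPKM), against 3 in old naive tissue (0.12 FPKM), and 33 in young tumor-bearing tissue (1.04 FPKM), against 1 in young naive tissue (0.0307 FPKM). The ratio was 58.3 in old mice (19.7 to 285) and 33.7 in young mice (5.65 to 1370), and with so few naive reads the size of either is loosely fixed. Plac8 is also made by B cells and neutrophils. Beside it, 7 B cell genes summed to 34.5 FPKM in old tumor-bearing and 24.0 FPKM in old naive tissue. Of these, 4 of 5 over the floor were at least 2-fold higher, beside 20.6% of all genes, Cd79a among them at 142 reads against 2. Only 1 of the 7 reached 1 FPKM in a naive library, and the others could not have been called lower. The part of B cells in the Plac8 values was not tested.

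Ms4a7, a four-span membrane protein found on border macrophages and on macrophages of blood origin but scarce on resting microglia (ENSMUSG00000024672, mm10 chromosome 19, 11321039 to 11336146), stood apart in old tumor-bearing tissue. It had 299 reads in old tumor-bearing tissue (2.89 FPKM), against 10 in old naive tissue (0.144 FPKM), and 15 in young tumor-bearing tissue (0.168 FPKM), against 3 in young naive tissue (0.033 FPKM). It was 20.1-fold higher with tumor in old mice (10.8 to 42.4) and 5.11-fold higher in young mice (1.45 to 27.5). The old tumor-bearing library stood far above the other 3, and the ratio of young tumor-bearing to old naive tissue, 1.17 (0.493 to 2.92), lay within counting error. Chil3, a chitinase-like lectin of alternatively activated macrophages and of neutrophils (ENSMUSG00000040809, mm10 chromosome 3, 106147554 to 106167564), stayed below 1 FPKM everywhere. It had 30 reads in old tumor-bearing tissue (0.791 FPKM), against 5 in old naive tissue (0.196 FPKM), and 5 in young tumor-bearing tissue (0.153 FPKM), against 2 in young naive tissue (0.0599 FPKM). The old ratio was 4.04 (1.55 to 13.3), while the young ratio of 2.56 (0.418 to 26.8) lay within counting error. Of its 50-base stretches, 26.9% also occur in other genes, mainly in Chil4, so its few reads are uncertain in origin.

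Neutrophils make Lyz2, Chil3 and Plac8 too. The 12 neutrophil genes summed to 11.4 FPKM in old tumor-bearing and 13.8 FPKM in old naive tissue, and to 5.36 FPKM in young tumor-bearing and 5.46 FPKM in young naive tissue. Of the 4 over the floor in old tissue, Csf3r was 2.49-fold higher with tumor (2.08 to 2.98), S100a9 was 3.11-fold lower (1.83 to 5.42), Ngp was 5.31-fold lower (2.23 to 14.5) and S100a8 was within counting error. Ly6g, which defines mouse neutrophils, had 0 reads in both old libraries and in the young tumor-bearing one. As deposited, the ratio of the summed neutrophil levels with and without tumor was 0.825 in old mice and 0.981 in young mice. Under the 4 other scalings it was 1.01 to 1.23 in old mice. The part of neutrophils in the Lyz2, Chil3 and Plac8 values was not tested.

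**Figure D1:**
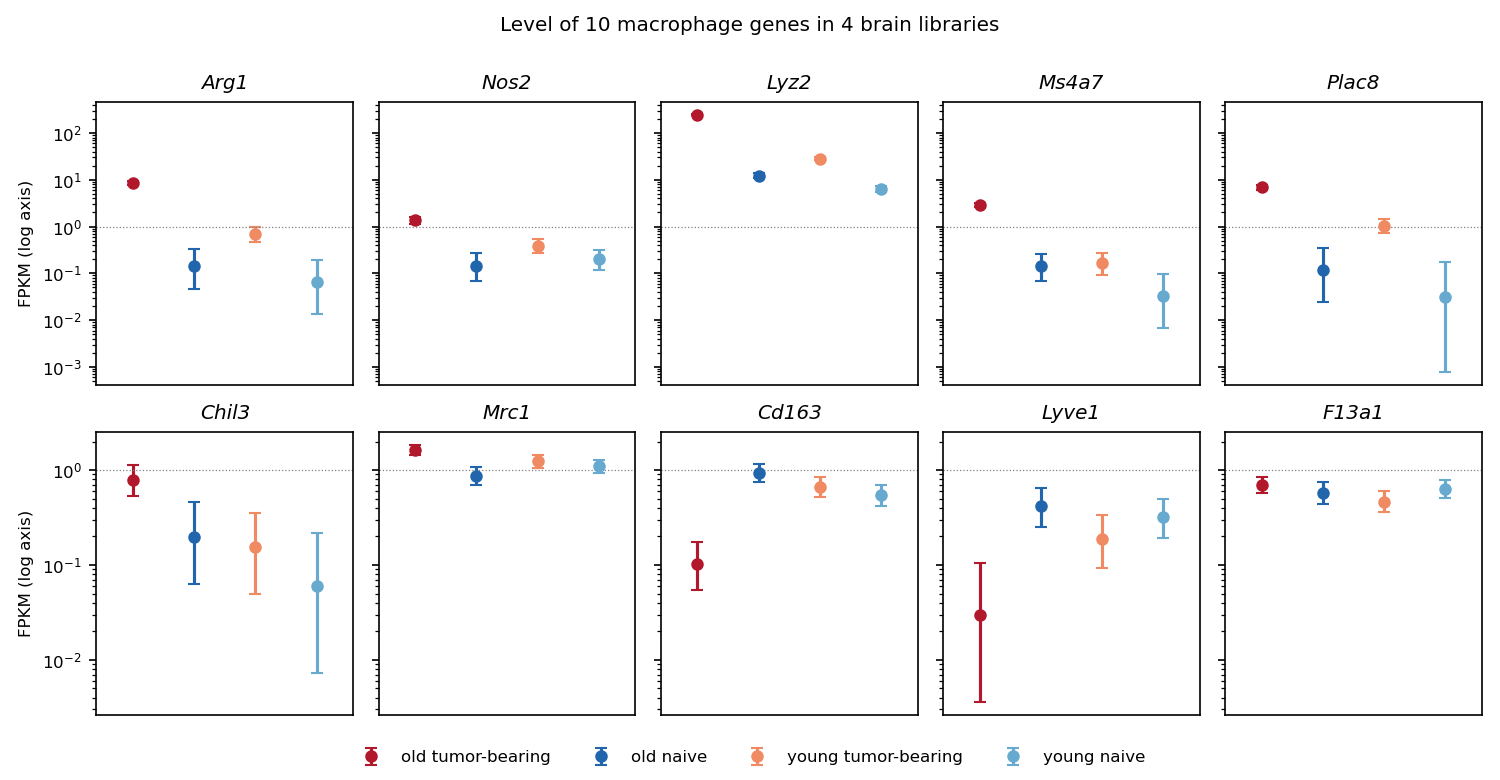
Level of each of the 10 genes in FPKM (log axis, shared within a row) in old tumor-bearing, old naive, young tumor-bearing and young naive tissue, with 1 library per group. Points are the deposited values, bars are exact 95% intervals of the reads and cover counting error only, and the dotted line is 1 FPKM. Lyz2 reaches 244 FPKM in old tumor-bearing tissue, whereas Cd163 and Lyve1 are lowest there.

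Arg1 and Nos2 encode enzymes that split arginine in different ways. Arginase 1 makes ornithine and urea and is a marker of suppressive and tissue-repair macrophages in mice, while the inducible synthase makes nitric oxide and marks macrophages driven by interferon gamma or bacterial products. Both were higher in tumor-bearing tissue at both ages. Arg1 (ENSMUSG00000019987, mm10 chromosome 10, 24915221 to 24927484) had 449 reads in old tumor-bearing tissue (8.67 FPKM), against 5 in old naive tissue (0.143 FPKM), and 31 in young tumor-bearing tissue (0.696 FPKM), against 3 in young naive tissue (0.0659 FPKM). In young mice the ratio was 10.6 (3.30 to 54.0). In old mice it was 60.4 (25.7 to 187). Nos2 (ENSMUSG00000020826, mm10 chromosome 11, 78920787 to 78960254) had 140 reads in old tumor-bearing tissue (1.36 FPKM), against 10 in old naive tissue (0.145 FPKM), and 34 in young tumor-bearing tissue (0.385 FPKM), against 18 in young naive tissue (0.20 FPKM). Its ratio was 9.42 in old mice (4.97 to 20.1) and 1.93 in young mice (1.06 to 3.63), the young one only just beyond counting error. Per unit length, Arg1 stood at 635% of the Nos2 level in old tumor-bearing and 99.0% in old naive tissue, and at 181% in young tumor-bearing and 33.0% in young naive tissue. Arg1 thus lay above Nos2 in both tumor-bearing libraries and at or below it in both naive ones.

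Few other genes of arginine use were called. Of 13 such genes, 12 were over the floor in old tissue, with 1 at least 2-fold higher and 2 lower in the tumor-bearing library, and 0 of 12 were 2-fold apart in young tissue. Both old counts were below the shares over all genes, 20.6% and 31.4%. The higher one was Odc1, which turns ornithine, the product of arginase, into putrescine. It stood at 217 FPKM in old tumor-bearing and 18.6 FPKM in old naive tissue (11.7-fold, 10.9 to 12.5), and at 42.6 FPKM in young tumor-bearing and 26.2 FPKM in young naive tissue (1.62-fold, 1.53 to 1.72). Under the floor or the 2-fold limit, Gch1, which makes the cofactor of nitric oxide synthases, was 3.75-fold higher in old tumor-bearing tissue (2.46 to 5.94), and Slc7a1, an arginine transporter, 1.94-fold higher (1.82 to 2.07). Odc1 is also a gene of dividing cells, and the 10 cell cycle genes summed to 10.6 FPKM in young tumor-bearing and 3.09 FPKM in young naive tissue. Their part in the Odc1 values was not tested. Ass1, which helps remake arginine from citrulline, was 3.92-fold lower with tumor in old tissue (3.37 to 4.57), and Ddah1, which clears inhibitors of nitric oxide synthases, was 2.61-fold lower (2.42 to 2.82). Arg2, the mitochondrial arginase, was at 1.08 FPKM in old tumor-bearing and 2.24 FPKM in old naive tissue and at 1.93 FPKM in young tumor-bearing and 3.19 FPKM in young naive tissue, opposite in direction to Arg1 at both ages.

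The border macrophage genes gave another picture. Mrc1, the mannose receptor CD206 (ENSMUSG00000026712, mm10 chromosome 2, 14229392 to 14332057), stayed within 2-fold between libraries as deposited. It stood at 1.63 FPKM in old tumor-bearing and 0.863 FPKM in old naive tissue, and at 1.24 FPKM in young tumor-bearing and 1.10 FPKM in young naive tissue. In old mice it was 1.89-fold higher with tumor (1.47 to 2.44), a ratio that became 2.32 to 2.81 under the 4 other scalings tried, while the young ratio of 1.13 (0.895 to 1.43) lay within counting error. F13a1, the A subunit of coagulation factor XIII, a transglutaminase stored in monocytes and tissue macrophages (ENSMUSG00000039109, mm10 chromosome 13, 36867178 to 37050244), was at 0.696 FPKM in old tumor-bearing and 0.579 FPKM in old naive tissue, and at 0.467 FPKM in young tumor-bearing and 0.631 FPKM in young naive tissue. As deposited, neither tumor ratio left counting error, at 1.20 in old mice (0.871 to 1.67) and 0.74 in young mice (0.527 to 1.04). Under the 4 other scalings the old ratio was 1.48 to 1.79, with intervals that began at 1.07 to 1.30 and so lay above 1. An annotated antisense gene overlaps 1.1% of the F13a1 exon bases, and its reads cannot be told apart here because the sources used here do not give the strand setting of the libraries.

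Cd163 and Lyve1 were lower in old tumor-bearing tissue. Cd163, the scavenger receptor for haptoglobin-bound hemoglobin (ENSMUSG00000008845, mm10 chromosome 6, 124304656 to 124330527), had 13 reads in old tumor-bearing tissue (0.102 FPKM), against 80 in old naive tissue (0.936 FPKM), and 73 in young tumor-bearing tissue (0.668 FPKM), against 61 in young naive tissue (0.546 FPKM). It was 9.15-fold lower with tumor in old mice (5.06 to 17.9), and 6.14-fold to 7.44-fold lower under the 4 other scalings, whereas in young mice the ratio of 1.22 (0.859 to 1.75) lay within counting error. Old tumor-bearing tissue was the one low library, and the other 3 were within 1.71-fold of each other. Lyve1, a hyaluronan receptor of perivascular and meningeal macrophages and of lymphatic endothelium (ENSMUSG00000030787, mm10 chromosome 7, 110850607 to 110863239), had 2 reads in old tumor-bearing tissue (0.0295 FPKM), against 19 in old naive tissue (0.416 FPKM), and 11 in young tumor-bearing tissue (0.188 FPKM), against 19 in young naive tissue (0.318 FPKM). The old ratio was 0.0708 (0.008 to 0.294) and the young ratio 0.592 (0.254 to 1.31), so that only the old one left counting error. Of 6 lymphatic endothelial genes, Mmrn1 and the chromosome 4 copy of Ccl21a had 0 reads in both old libraries. The 3 over the floor are also expressed by other brain cells. Reln was 3.15-fold lower in old tumor-bearing tissue (2.87 to 3.46), while Pdpn was 1.27-fold and Prox1 1.72-fold higher. Their part in the Lyve1 values was not tested.

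Blood genes were read beside Cd163, the hemoglobin receptor, and like it were lower with tumor in old tissue. The 5 hemoglobin and erythroid genes summed to 160 FPKM in old tumor-bearing and 604 FPKM in old naive tissue, with 5 of 5 at least 2-fold lower, and to 308 FPKM in young tumor-bearing and 387 FPKM in young naive tissue, with 0 of 5 2-fold apart. The choroid plexus, one home of border macrophages, was unevenly represented. Its 12 epithelial genes summed to 527 FPKM in old tumor-bearing and 50.8 FPKM in old naive tissue, and to 495 FPKM in both young libraries. The old naive library had the lowest of these sums. Cd163 was highest in that library, while Lyve1 there lay within counting error of young naive tissue (1.31, 0.655 to 2.61). The 12 meningeal fibroblast genes summed to 52.1 FPKM in old tumor-bearing and 40.3 FPKM in old naive tissue, and to 53.0 FPKM in young tumor-bearing and 40.7 FPKM in young naive tissue. The part of blood, choroid plexus and meninges in the Cd163 and Lyve1 values was not tested.

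**Figure D2:**
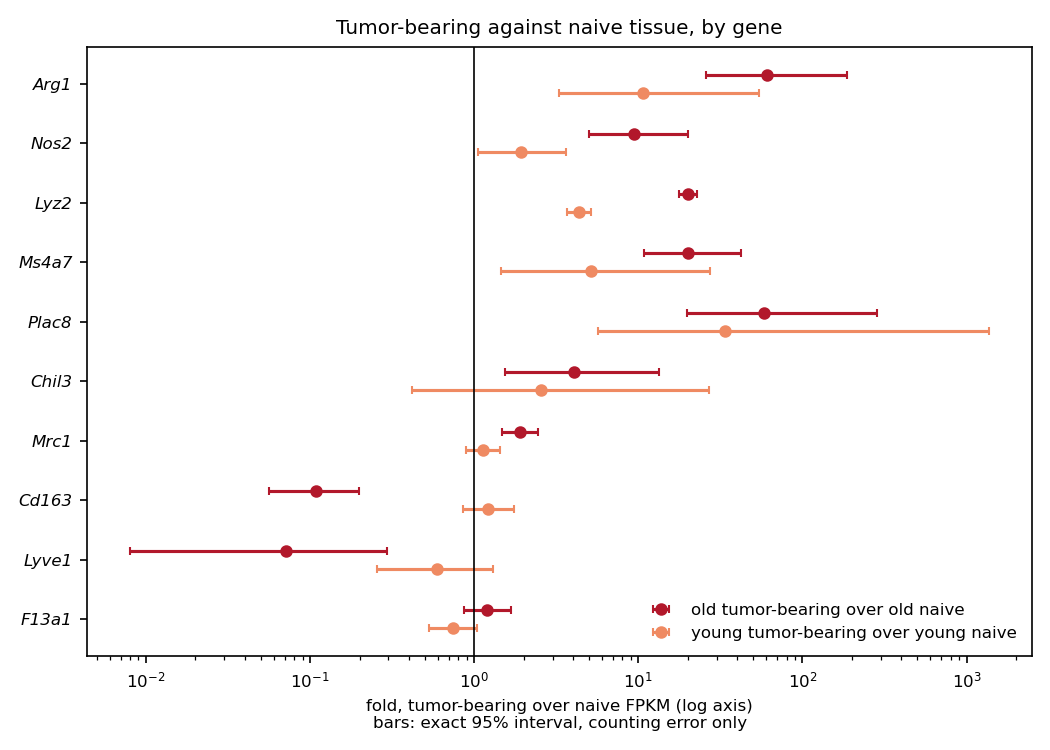
Fold of tumor-bearing over naive FPKM for each gene (log axis) in old and in young tissue, with exact 95% intervals that cover counting error only and a line at 1. In old tissue 7 intervals lie above 1 and those of Cd163 and Lyve1 below it, while in young tissue 5 lie above 1 and 0 below.

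Counted over the set, old tumor-bearing tissue differed from old naive tissue in both directions. Of the 10 genes, 6 were over that floor and 5 were called higher (Arg1, Nos2, Lyz2, Ms4a7, Plac8), beside 20.6% of all 16488 genes tested, and 0 were called lower, beside 31.4%. Arg1, Nos2, Ms4a7, Plac8 and Mrc1 were over the floor only through the old tumor-bearing library. They could therefore not have been called lower, and these counts are no test of direction. Cd163 and Lyve1 lay under the floor in both libraries, so the call does not cover them. By counting error alone, 7 of 10 were higher, 2 lower and 1, F13a1, within it as deposited. The median log2 ratio was 2.09 over all 10 genes and -0.31 over all genes tested. The split over all genes, 3395 higher and 5171 lower, was tied to the scaling and became 5345 and 3203 with equal recovered fragments, where the ratios shift upward by 0.58 on the log2 scale.

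In young mice, 3 of the 10 genes were over the floor. Of these, 2 were called higher in tumor-bearing than in naive tissue (Lyz2, Plac8), beside 5.05% of 15500 genes, and 0 were called lower, beside 1.85%. Plac8 was over the floor only through the tumor-bearing library and could not have been called lower. By counting error 5 of 10 were higher, 0 lower and 5 within it. The median log2 ratio of the 10 was 0.68, against -0.01 over all genes tested.

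Set against each other, the tumor ratios of old mice exceeded those of young mice for 8 of the 10 genes, beside 41.0% of the 17441 genes that reached 1 FPKM in a library. The 2 sets are unlike, since Cd163, Lyve1, F13a1 and Chil3 stayed below 1 FPKM in every library. Both shares hold for the deposited scaling. The other scalings raise the log2 tumor ratio by 0.30 to 0.58 in old mice and by 0.02 to 0.06 in young mice. As a quotient of FPKM folds, the old fold was 5.72 times the young one for Arg1, 4.88 times for Nos2, 4.60 times for Lyz2 and 3.94 times for Ms4a7. It was 1.58 to 1.73 times the young one for Chil3, F13a1, Mrc1 and Plac8, and 0.12 times for Lyve1 and 0.0894 times for Cd163. On the log2 scale of FPKM + 0.1 the differences were 2.91 for Arg1, 2.60 for Ms4a7 and 1.89 for Plac8, and for Ms4a7 and Plac8 they exceed what the folds give because 0.1 FPKM is above their young naive levels. The 95% intervals of the old and the young fold overlapped for Arg1, Ms4a7, Plac8, Chil3, F13a1 and Lyve1. They were apart for Nos2, Lyz2, Mrc1 and Cd163, by counting error only. No test of the differences between old and young folds was possible with 1 library per group.

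Old and young tumor-bearing tissue were also compared directly, in a comparison that shares the old tumor-bearing library with the one above. Of 6 genes over the floor, 5 were called higher in old mice (Arg1, Nos2, Lyz2, Ms4a7, Plac8), beside 19.0% of 16562 genes, and 0 lower, beside 29.8%. Arg1, Nos2 and Ms4a7 were over the floor only through the old library and could not have been called lower. The ratio of old to young was 17.1 for Ms4a7 (10.2 to 31.0), 12.5 for Arg1 (8.65 to 18.6), 8.64 for Lyz2 (8.01 to 9.33), 6.78 for Plac8 (4.71 to 10.1) and 3.54 for Nos2 (2.42 to 5.31). Chil3, F13a1 and Mrc1 also left counting error, at 5.16 (1.98 to 17.0), 1.49 (1.08 to 2.06) and 1.31 (1.07 to 1.61). Cd163 was 6.53-fold lower in old mice (3.59 to 12.8) and Lyve1 6.39-fold lower (1.40 to 59.4). Over all genes 3155 were called higher and 4941 lower, which became 4507 and 3494 with equal recovered fragments.

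Naive tissue of the 2 ages was closer. In old against young naive tissue 2 of the 10 genes were over the floor and 0 were called in either direction, beside 6.71% of 15419 genes called higher and 4.93% called lower. By counting error, Lyz2 was 1.88-fold higher in old naive tissue (1.54 to 2.29), Cd163 1.71-fold (1.21 to 2.43) and Ms4a7 4.36-fold, the last on 10 reads against 3 (1.12 to 24.6). The other 7 did not leave counting error as deposited, although Mrc1 (0.786) was lower in old naive tissue beyond it under 3 of the 4 other scalings, and Ms4a7 stayed within it with equal FPKM totals. Over all genes 1035 were called higher and 760 lower, a split that turned to 617 and 1020 with equal FPKM totals.

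The rest of the macrophage transcriptome was used to place these differences. Of the 10 general genes, 8 had at least 2-fold higher levels in old tumor-bearing than in old naive tissue and 0 had lower ones, with a median log2 ratio of 1.89, and 0 were 2-fold apart in young tissue, with a median of 0.52. Ptprc, the pan-leukocyte phosphatase CD45, was 12.7-fold higher in old tumor-bearing tissue (9.85 to 16.7), and Cd68, a lysosomal protein of phagocytes, 6.23-fold higher (5.23 to 7.48). Of 12 homeostatic microglia genes, 1 was at least 2-fold higher and 2 lower in old tumor-bearing tissue, both below the shares over all genes (20.6% and 31.4%). Their median log2 ratio in old tissue was -0.23 as deposited and 0.06 to 0.34 under the 4 other scalings. In young tissue it was 0.23, and 0 of 12 were 2-fold apart.

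Relative to the mean of the general genes, the set divided in old tissue. The remaining log2 difference between tumor-bearing and naive libraries was 3.31 for Arg1, 3.15 for Plac8, 2.46 for Lyz2, 1.76 for Ms4a7 and 0.72 for Nos2. It was -0.27 for Chil3, -1.02 for Mrc1, -1.63 for F13a1, -3.86 for Lyve1 and -4.22 for Cd163. Mrc1 therefore lay above its naive level per unit of RNA but rose less than the mean of the general genes. For some genes the direction depended on the reference. Mrc1 stood at 4.97% of Csf1r in old tumor-bearing and 3.38% in old naive tissue, but at 2.92% and 5.63% of Tyrobp. Against Csf1r, Chil3 stood at 2.42% in old tumor-bearing and 0.768% in old naive tissue, and F13a1 at 2.13% and 2.27%. In young tissue the same difference was 2.55 for Plac8, 1.69 for Arg1 and 1.54 for Lyz2, while it was 0.44 for Ms4a7, 0.13 for Nos2, 0.09 for Chil3, -0.32 for Cd163, -0.41 for Mrc1, -0.93 for F13a1 and -1.11 for Lyve1. Set against Csf1r, the growth factor receptor on which microglia and macrophages depend, Lyz2 stood at 746% of the Csf1r level in old tumor-bearing and 47.6% in old naive tissue, and at 112% in young tumor-bearing and 35.7% in young naive tissue. Cd163 stood at 0.313% in old tumor-bearing and 3.67% in old naive tissue, and at 2.65% in young tumor-bearing and 3.02% in young naive tissue.

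Most further genes of monocyte-derived macrophages were higher in old tumor-bearing tissue, as Lyz2 was. Of 22 such genes, 19 were over the floor in old tissue, with 17 at least 2-fold higher in the tumor-bearing library and 1 lower. In young tissue 14 were over it, with 6 higher and 0 lower. The shares over all genes were 20.6% higher and 31.4% lower in old tissue, and 5.05% and 1.85% in young tissue. Only 10 of the 22 reached 1 FPKM in a naive library, and the others could not have been called lower. The median over all 22 was 2.78 in old and 1.08 in young tissue. Ly6c2, a surface protein of inflammatory monocytes, had 382 reads in old tumor-bearing tissue, against 3 in old naive tissue, and 37 in young tumor-bearing tissue, against 0 in young naive tissue. Ccr2, the receptor that brings monocytes out of the marrow, had 1.62 FPKM in old tumor-bearing and 0.07 FPKM in old naive tissue, and 0.46 FPKM in young tumor-bearing and 0.08 FPKM in young naive tissue. Cd44, an adhesion receptor that many cell types share, was 43.2-fold higher in old tumor-bearing tissue (33.6 to 56.4), and Ifitm3, which interferon also induces, 35.5-fold higher (30.3 to 41.9).

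Further border macrophage genes were mixed, as Mrc1, F13a1, Cd163 and Lyve1 were. Of 15, 9 were over the floor in old tissue, with 6 at least 2-fold higher and 2 lower in the tumor-bearing library, and 7 in young tissue, with 2 higher and 0 lower. In old tissue the shares over all genes were 20.6% higher and 31.4% lower. The chemokine genes Ccl7 and Ccl8 had 130 and 149 reads in old tumor-bearing tissue, against 2 and 3 in old naive tissue, and 27 and 24 in young tumor-bearing tissue, against 3 and 4 in young naive tissue. Siglec1, a sialic acid receptor that interferon induces, was 26.1-fold higher in old tumor-bearing tissue (14.5 to 52.7), and Clec4n, the lectin receptor dectin-2, had 177 reads against 1. Under the floor, Cd209a and Cd209f, lectin receptor genes, went with Cd163 and Lyve1, at 2 reads each in old tumor-bearing tissue, against 22 and 19 in old naive tissue. Pf4 and Cbr2, markers that separate border macrophages from microglia, stood at 2.51 and 0.29 FPKM in old tumor-bearing tissue, against 1.15 and 0.63 FPKM in old naive tissue, and at 1.04 and 0.53 FPKM in young tumor-bearing tissue, against 1.97 and 0.96 FPKM in young naive tissue.

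Other macrophage activation genes went both ways, with more of them higher. Of 20 listed, 14 were over the floor in old tissue, with 9 at least 2-fold higher and 2 lower in the tumor-bearing library, and 10 in young tissue, with 1 higher and 0 lower. Gpnmb, a glycoprotein of lipid-laden and tumor macrophages, was 40.8-fold higher in old tumor-bearing tissue (33.2 to 50.7). Spp1, osteopontin, was 22.3-fold higher there (18.4 to 27.2), while its young ratio was 0.735 (0.648 to 0.834). Il1b, an inflammatory cytokine, had 181 reads in old tumor-bearing tissue, against 2 in old naive tissue. Ptgs2, an inducible prostaglandin synthase, was 3.06-fold lower in old tumor-bearing tissue (2.48 to 3.79), and Vegfa, an angiogenic factor of many cell types, 2.33-fold lower (2.16 to 2.51). Of the 18 genes for ligands and receptors that recruit or steer macrophages, 15 were over the floor in old tissue, with 10 higher and 2 lower. Ccl2, the main ligand of Ccr2, had 83 reads in old tumor-bearing tissue, against 0 in old naive tissue, and 20 in young tumor-bearing tissue, against 0 in young naive tissue.

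**Figure D3:**
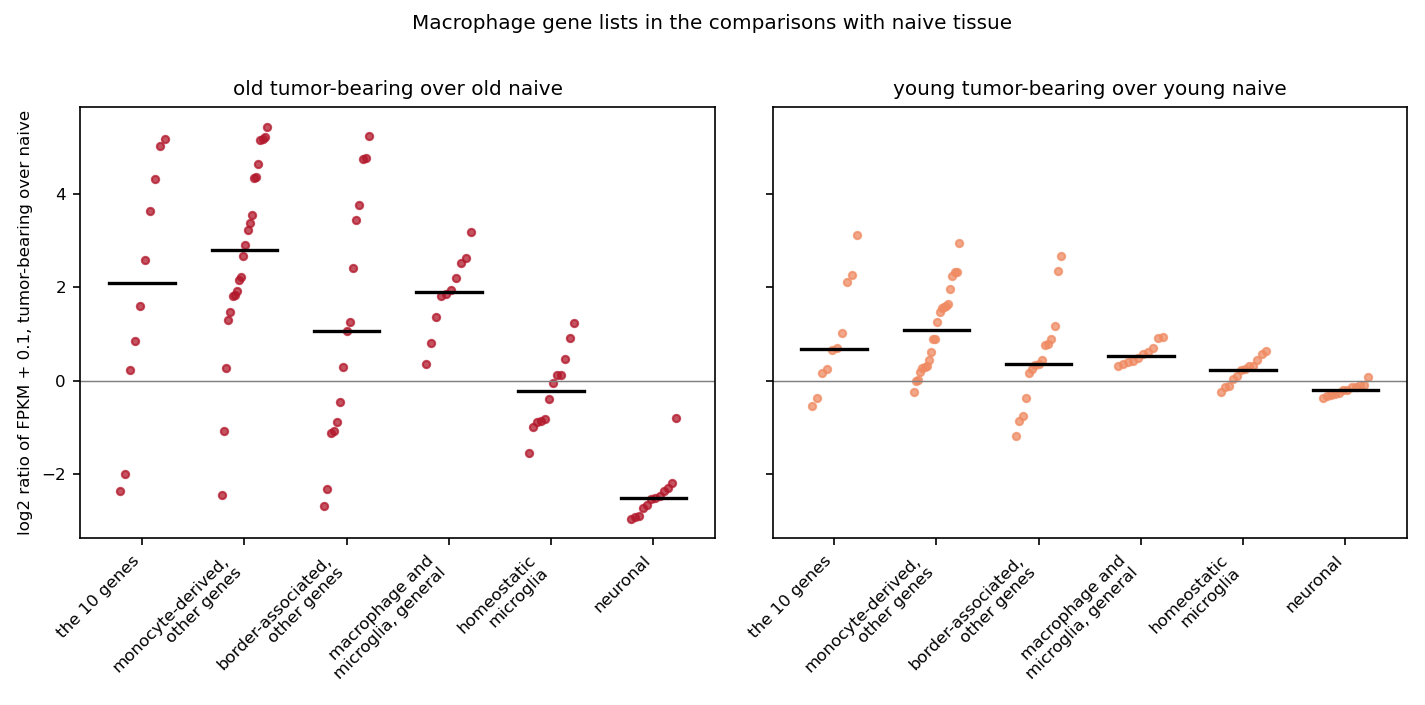
Log2 ratio of FPKM + 0.1 of tumor-bearing over naive tissue for each gene (points) of 6 lists, in old and in young mice, with a bar at the median of all genes of a list. The 10 genes spread from -2.36 to 5.17 in old tissue, the general macrophage and microglia genes lie above 0 throughout, and the neuronal genes lie below 0 in old tissue.

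The start regions of the set were read for letters that factors of myeloid cells are known to bind. Promoter windows, each 250 bases before to 50 after an annotated start, were on hand for 7 of the 10 genes (10 windows), from RefSeq on GRCm38.p6, and Arg1, Nos2 and Lyve1 had none. Below are those of 3 genes that were higher in tumor-bearing tissue at both ages and of Cd163, which was lower in old tumor-bearing tissue, each 5′ to 3′ on the strand of its gene, with matches to the C/EBP letters TTNNGNAA in capitals (either strand, overlapping matches run together).
Lyz2, chr10:117282223-117282522, minus strand: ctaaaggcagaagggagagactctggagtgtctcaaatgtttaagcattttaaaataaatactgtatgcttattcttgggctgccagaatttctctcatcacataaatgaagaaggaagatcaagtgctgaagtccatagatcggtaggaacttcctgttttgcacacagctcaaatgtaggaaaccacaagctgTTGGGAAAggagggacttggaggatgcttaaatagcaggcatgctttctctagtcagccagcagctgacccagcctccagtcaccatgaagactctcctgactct
Plac8, first start, chr5:100572156-100572455, minus strand: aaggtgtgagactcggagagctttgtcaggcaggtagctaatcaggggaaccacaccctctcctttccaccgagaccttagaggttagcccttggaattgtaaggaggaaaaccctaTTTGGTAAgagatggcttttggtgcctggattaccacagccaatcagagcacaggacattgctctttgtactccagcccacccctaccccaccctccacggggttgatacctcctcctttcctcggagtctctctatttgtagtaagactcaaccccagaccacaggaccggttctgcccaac
Ms4a7, first start, chr19:11336097-11336396, minus strand: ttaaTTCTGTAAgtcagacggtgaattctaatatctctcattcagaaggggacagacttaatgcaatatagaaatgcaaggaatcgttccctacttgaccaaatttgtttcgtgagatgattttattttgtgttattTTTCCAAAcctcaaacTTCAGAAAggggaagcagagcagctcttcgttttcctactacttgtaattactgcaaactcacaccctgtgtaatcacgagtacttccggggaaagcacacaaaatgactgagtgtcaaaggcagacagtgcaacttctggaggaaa
Cd163, chr6:124304401-124304700, plus strand: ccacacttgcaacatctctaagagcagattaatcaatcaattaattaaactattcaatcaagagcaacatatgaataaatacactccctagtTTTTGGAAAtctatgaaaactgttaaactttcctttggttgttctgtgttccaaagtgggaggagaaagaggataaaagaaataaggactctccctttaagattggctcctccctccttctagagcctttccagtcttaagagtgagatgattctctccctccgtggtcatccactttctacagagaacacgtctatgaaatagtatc
C/EBP factors, together with PU.1, switch on many genes of the monocyte and granulocyte lineage. The C/EBP letters were in 10 of 10 windows of the set and in 40.7% of all 32851 windows in the table. In Lyz2 the match runs from -55 to -48, counted from the start. The letters GAGGAA, read by PU.1 and other ETS factors, were in 5 of 10 windows and in 28.3% of all windows, those of NF-kappaB (GGG and CC with 5 bases between) in 5 of 10 and 50.8%, and those of STAT6 (TTC and GAA with 4 bases between) in 2 of 10 and 6.95%. The letters of the interferon-stimulated response element (GAAA and GAAA with 2 bases between) were in 0 of 10 and in 3.44% of all windows. Windows of the same gene are not independent, both strands were searched, and in the second F13a1 window the C/EBP, GAGGAA and NF-kappaB matches overlap. The C/EBP letters were found in Cd163 as they were in Lyz2, Plac8 and Ms4a7.

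**Figure D4:**
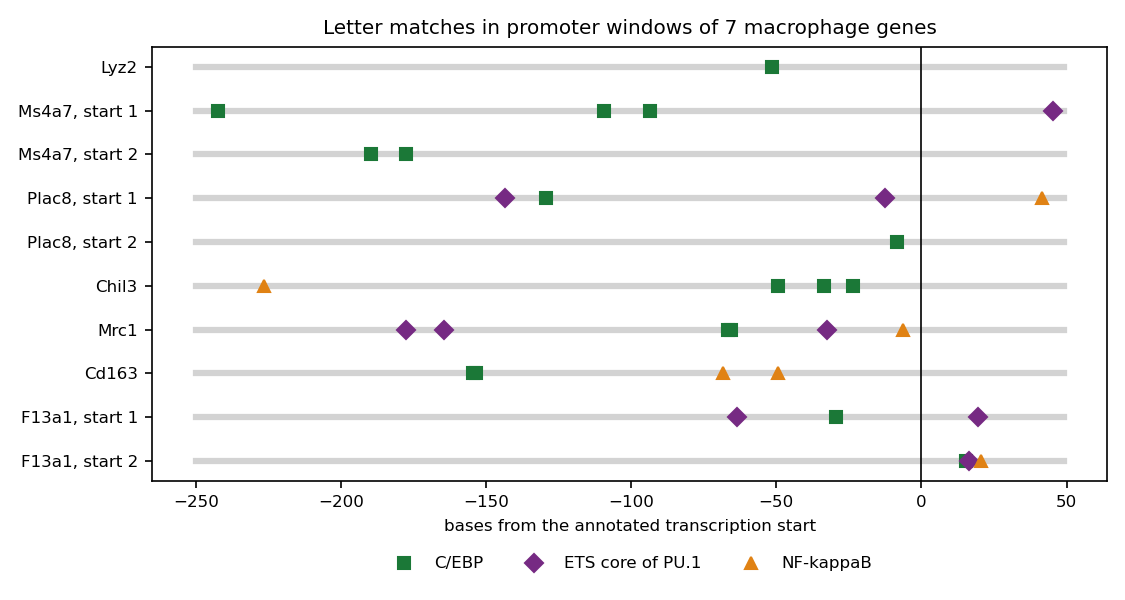
Position of matches to the C/EBP, GAGGAA (ETS core of PU.1) and NF-kappaB letters in 10 promoter windows of 7 genes, in bases from the annotated transcription start (line at 0). The C/EBP letters occur in 10 of 10 windows.

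The factors themselves differed as well. Of 16 transcription factor genes listed for this set, old tumor-bearing tissue had 9 at least 2-fold above old naive tissue and 2 below it, with 3 higher and 0 lower in young tumor-bearing than in young naive tissue. Cebpb stood at 65.0 FPKM in old tumor-bearing and 4.84 FPKM in old naive tissue (13.4-fold, 11.1 to 16.3), and at 7.35 FPKM in young tumor-bearing and 3.84 FPKM in young naive tissue (1.91-fold, 1.52 to 2.41). Spi1, which encodes PU.1, was 4.78-fold higher in old tumor-bearing tissue (3.75 to 6.16) and 1.66-fold higher in young tumor-bearing tissue (1.24 to 2.22). Irf1, a factor that interferon gamma induces and that acts on Nos2, was 30.0-fold higher in old (25.5 to 35.6) and 4.23-fold higher in young tumor-bearing tissue (3.35 to 5.38). Maf, a factor of border macrophages and microglia, was at 2.52 FPKM in old tumor-bearing and 5.41 FPKM in old naive tissue.

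The genes nearest in pattern over the 4 libraries were sought for 3 of the 10 genes. Likeness was the largest absolute difference between 2 profiles of log2 FPKM + 0.1, each centred on its own mean, over 9980 protein-coding genes outside the set, and it was taken for Lyz2, Arg1 and Plac8, which reached 5 FPKM in a library, Arg1 and Plac8 in old tumor-bearing tissue alone. Nearest to Lyz2 were Lgals3bp (0.11), Cd274 (0.12) and Ifit3 (0.16). Nearest to Arg1 were Ms4a4c (0.15), Irf7 (0.16) and Ifit1 (0.16). Nearest to Plac8 were Serpina3f (0.08), Ly6c2 (0.17) and Plbd1 (0.31). Each likeness rests on 4 libraries, of which the old tumor-bearing one sets most of the range. Arg1, Plac8, Ms4a4c, Serpina3f, Ly6c2 and Plbd1 had 0 to 5 reads in each naive library. The added 0.1 FPKM therefore sets part of their likeness.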

How the data were processed

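Poly-A RNA of mouse brain was sequenced as paired-end libraries, 1 per group, and groups were taken from the labels. The deposited values are FPKM per gene, per the file headers. The submitters' processing notes name HISAT2 and the mm10 build. The sources used here give no counter, gene annotation or filter, and the labels' protocols describe a directional and a non-directional library without saying which was used.

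Symbols, exon lengths and positions came from GENCODE M21, which matched 54495 of 54532 gene IDs. FPKM times exon length came in whole steps, which gave each library's divisor and reads: of 32846 genes above 0, 31929 (97.2%) were whole in all libraries within 0.03 reads or 2e-05 of the value, all 10 members included. For a 1 kb gene, the 3 reads that a count of 0 allows correspond to 0.129 to 0.192 FPKM.

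Log2 ratios used FPKM + 0.1 and understate single differences of low genes, though not always the difference between 2 ratios. Folds are ratios of FPKM with exact conditional binomial 95% intervals, which cover counting error only, since reads that carry no molecular identifier can be copies of 1 molecule. No count model was run. All 10 members are named. Of other lists, the genes named are among the 4 furthest apart in old tissue or paralogs of a member, while Ccr2, Pf4, Cbr2, Maf, Csf1r, Tyrobp, Ly6g, Mmrn1, Ccl21a, F13b, Gch1, Slc7a1, Vegfa, Ptgs2, Cd209a and Cd209f were chosen after their values were seen. Members and lists were chosen with earlier results of these data known. Alternatives were a pseudocount of 1, no filter or one of 5 FPKM, and 4 other scalings (median-of-ratios, equal FPKM totals with all genes or without mitochondrial and the 50 highest genes, and equal recovered fragments). Scripts were tested on simulated data and ran in Python with numpy 2.4.6, pandas 2.3.3 and scipy 1.17.1.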

Additional observations from a re-analysis of the deposited data

Results flagged for a closer look

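Cd163 moved in opposite directions with tumor at the 2 ages, higher in young and lower in old tumor-bearing tissue, and its old minus young log2 ratio was -2.61. The old ratio left counting error (0.109, 0.0558 to 0.198) and the young one did not (1.22, 0.859 to 1.75). Relative to the general macrophage genes it was lower at both ages, by a log2 ratio of -4.22 in old and -0.32 in young tissue. F13a1 also had opposite directions, with an old minus young log2 ratio of 0.60, but both of its ratios lay within counting error as deposited. Under the 4 other scalings the old ratio was 1.48 to 1.79, beyond counting error, and relative to the general macrophage genes both ages were negative (-1.63 in old and -0.93 in young tissue). Neither difference between the ages was tested, since each group was 1 library.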

How the results depend on the processing

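With 1 library per group no replicate could be left out. No paired analysis was possible because each group held 1 library. The 2 members called higher in young tumor-bearing over young naive tissue became 1 with a pseudocount of 1 FPKM, 1 with a filter of 5 FPKM, 1 with median-of-ratios scaling, where Plac8 slipped under the filter, and 4 with no filter, which added Arg1 and Ms4a7. The 5 called higher in old tumor-bearing over old naive tissue, and in old over young tumor-bearing tissue, became 3 in each with a filter of 5 FPKM, and the 0 called lower became 2 in each with no filter (Cd163 and Lyve1). Under each of the 4 other scalings, the 5 called higher in old tumor-bearing over old naive tissue became 6, with Mrc1 added. Other counts stayed within 1.5 times under the alternatives run, among them equal recovered fragments, which was chosen after the data were seen. Relative to the general macrophage genes, Nos2 in old over young tumor-bearing tissue turned to -0.03, from 1.59 on the deposited scale, and 2 genes under 2-fold turned as well, Mrc1 to -1.26 and F13a1 to -1.14, from 0.37 and 0.49. These turns depended on the reference. Against Csf1r, Nos2 stood at 4.17% in old and 1.53% in young tumor-bearing tissue, Mrc1 at 4.97% and 4.91%, and F13a1 at 2.13% and 1.85%. Against Tyrobp the values were 2.45% and 2.48% for Nos2, 2.92% and 7.99% for Mrc1, and 1.25% and 3.01% for F13a1. Depth limits Arg1, Nos2, Ms4a7, Plac8, Chil3 and Lyve1, with 1 to 19 reads in each naive library.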

Other observations

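Of 6 relatives of Ms4a7, 6 were over the floor and 6 at least 2-fold higher in old tumor-bearing than in old naive tissue. In young tissue 1 of the 2 over the floor was higher with tumor. The shares over all genes were 20.6% in old and 5.05% in young tissue. All 6 were below 1 FPKM in both naive libraries and could not have been called lower, so these counts are no test of direction. Ms4a6d stood at 10.2 FPKM in old tumor-bearing and 0.405 FPKM in old naive tissue (25.2-fold, 13.9 to 50.9), and Ms4a6b was 10.6-fold higher (6.97 to 17.0). Ms4a4d and Ms4a6c had 178 and 223 reads in old tumor-bearing tissue, against 1 and 3 in old naive tissue. In young mice Ms4a6b was 4.15-fold higher with tumor (2.45 to 7.38) and Ms4a6c 7.84-fold (3.34 to 22.5). Relatives of Mrc1 parted from it and from each other. Ly75, the endocytic receptor DEC-205 of dendritic cells, was 23.4-fold higher in old tumor-bearing than in old naive tissue (16.7 to 33.7) and Pla2r1 25.8-fold (16.6 to 42.5), whereas Mrc2 was 1.57-fold lower (1.34 to 1.85).

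Of 12 partners of F13a1 in coagulation, 8 were over the floor in old tissue, with 5 at least 2-fold higher in the tumor-bearing library and 1 lower. In young tissue 4 were over it, with 0 called. The shares over all genes in old tissue were 20.6% higher and 31.4% lower. Only 4 of the 12 reached 1 FPKM in a naive library, and the others could not have been called lower. Plaur, the urokinase receptor, had 392 reads against 19 in old naive tissue (13.9-fold, 8.77 to 23.3). F10 had 142 reads against 1. F13b, the carrier subunit of factor XIII, was listed at 0 in all 4 libraries. Hmox1, the heme oxygenase that acts on heme taken up through Cd163, was 7.76-fold higher in old tumor-bearing tissue (6.03 to 10.1), opposite to Cd163. Hmox1 is 1 of 8 listed partners of Cd163 in hemoglobin clearance, and this list was split. With tumor in old tissue, calls went up for 2 of the 7 partners over the floor and down for 2. All 8 together came to 1800 FPKM in old tumor-bearing tissue, against 2290 FPKM in old naive tissue.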
